A study of Mus musculus with 20 samples.

Results

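The phagocyte NADPH oxidase was described here at the RNA level through 7 genes, chosen by symbol: Cybb, Cyba, Ncf1, Ncf4, Rac1, Rac2 and Hvcn1. All 7 were among the 24421 genes of the deposited count table and all 7 were among the 12465 genes with enough reads to be tested. Bulk RNA-seq had been performed on bone marrow-derived dendritic cells (BMDCs), which were grown from C57BL/6 mouse bone marrow over 8 days in medium holding 40 ng/mL of GM-CSF. Each of 5 mice, A to E, contributed 1 library per group, so that the 20 libraries came from 5 animals. The cells received either DMSO, given as 5% in the labels, or I-BET151 (iBET) at 3.3 µM, an inhibitor that blocks the binding of BET bromodomain proteins to acetylated histones. They were stimulated for 4 hours with ovalbumin alone (Ova) or with ovalbumin bound by IgG as immune complexes (IC), and the 4 groups are called DMSO Ova and DMSO IC, and, with the inhibitor, iBET Ova and iBET IC. The labels describe inhibitor and stimulus as given together, whereas the methods place iBET first, and the labels give no DMSO content for the iBET groups. GM-CSF cultures of bone marrow hold macrophage-like and granulocytic cells beside dendritic cells.

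The oxidase moves electrons from cytosolic NADPH across the membrane to oxygen, which yields superoxide inside the phagosome or outside the cell. Cybb encodes gp91phox (NOX2), the catalytic subunit, which sits in the membrane with p22phox, the product of Cyba. On stimulation, for example through Fc receptors that bind immune complexes, cytosolic proteins, p47phox (Ncf1) and p40phox (Ncf4) among them, join the membrane subunits together with a GTP-bound Rac, and the proton channel encoded by Hvcn1 carries protons out to balance the charge. In dendritic cells the oxidase is known to set the pH and the proteolysis of phagosomes and thereby the processing of antigen.

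In these BMDCs iBET lowered some transcripts of the complex and not others. Transcripts for the cytosolic organiser Ncf1, for Ncf4 and for the proton channel Hvcn1 fell to between 26.5% and 53.9% of the DMSO mean in both stimuli. No iBET library reached the lowest DMSO library for any of the 3. Groups without overlap, in either direction, were found for 38.0% of all genes tested with Ova and 42.8% with IC. Neither membrane subunit, Cybb or Cyba, nor Rac1 passed the test (Cybb did with Ova once the mouse entered the model), and their iBET means were between 98.1% and 114% of the DMSO means. Rac2 lay between them, at 84.4% with Ova and 85.6% with IC. IC raised Hvcn1 to 180% of the Ova mean in DMSO and to 177% in iBET, and lowered Ncf1 to 76.9% in DMSO.

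The genes lie on 4 chromosomes of the GRCm38 build (GENCODE M21 gene models, which may not be the annotation the authors counted on). Ncf1 (chr5:134220053-134229625, minus strand), Rac1 (chr5:143503634-143528036, minus strand) and Hvcn1 (chr5:122206804-122242297, plus strand) share chromosome 5, with gaps of 9274008 to 21261336 bases between them. Ncf4 (chr15:78244801-78262580, plus strand) and Rac2 (chr15:78559167-78572783, minus strand) lie 296586 bases apart on chromosome 15. Cyba is at chr8:122424776-122432930 and Cybb at chrX:9435252-9487771, both on the minus strand. Exons of Ncf1, Rac1 and Hvcn1 overlap those of a gene on the other strand, by 408 bases with Gtf2ird2, 2309 bases with Daglb and 1574 bases with Tctn1. The strand setting of the counting is not given in the sources used here, so reads in the shared exons could be counted differently under another setting. The median library held 124.5 counts for Gtf2ird2 beside 7825.5 for Ncf1, 901.5 for Daglb beside 9919.5 for Rac1, and 111 for Tctn1 beside 4857 for Hvcn1.

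RefSeq promoters (GRCm38.p6) matched 3 of the 7 members, Ncf1, Cybb and Cyba, and these are shown because 1 of them fell with iBET and 2 did not pass the test. Each line holds the 250 bases before an annotated start, on the gene's own strand, which is the minus strand for all 3. The gene model of Cybb holds 5 transcripts, and the start used lies inside its span (chrX:9435252-9487771), so that the outermost start is not shown. Windows of 300 bases, with the 50 bases after the start, were searched on both strands for GAGGAA, a core bound by PU.1, and for GGAANNGAA, a composite of an ETS and an IRF site. GAGGAA was found in 28.3% of 32851 such windows and GGAANNGAA in 8.24%. Capitals mark a match, and none of the 3 upstream stretches held one.
Ncf1 (chr5:134229626-134229875): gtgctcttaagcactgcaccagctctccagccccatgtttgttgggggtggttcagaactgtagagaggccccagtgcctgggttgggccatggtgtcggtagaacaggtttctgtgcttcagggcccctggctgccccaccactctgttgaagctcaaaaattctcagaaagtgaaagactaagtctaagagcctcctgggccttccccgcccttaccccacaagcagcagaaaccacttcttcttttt
Cybb (chrX:9469325-9469574): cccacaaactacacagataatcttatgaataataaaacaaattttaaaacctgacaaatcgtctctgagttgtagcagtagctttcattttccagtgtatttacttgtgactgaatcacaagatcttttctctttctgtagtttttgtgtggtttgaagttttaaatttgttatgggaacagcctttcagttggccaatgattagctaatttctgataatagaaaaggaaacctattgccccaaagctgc
Cyba (chr8:122432941-122433190): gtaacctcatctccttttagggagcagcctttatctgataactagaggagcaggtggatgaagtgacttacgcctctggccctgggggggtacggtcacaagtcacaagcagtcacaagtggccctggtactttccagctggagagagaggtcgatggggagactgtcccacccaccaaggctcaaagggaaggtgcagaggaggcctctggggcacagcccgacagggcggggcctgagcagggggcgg
Of the 3 windows, that of Cybb held both motifs, just after the start used here. They overlap on the opposite strand, GGAANNGAA at bases 5 to 13 and GAGGAA at bases 10 to 15.
Cybb site (chrX:9469302-9469328): ctgctgttTTCATTTCCTCatcagaag
A match describes letters and not a bound site, and their absence from the other windows says nothing on the binding of a factor.

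Libraries held 16447491 to 29245150 counts (median 21764663), of which the ribosomal RNA gene Rn45s took 2.69% to 8.61%, and the 7 genes together 0.307% to 0.507%. Levels are given as CPM, the counts of a gene scaled to a common library total with TMM normalization. Differences were tested in edgeR by quasi-likelihood, p values were adjusted by Benjamini-Hochberg over all 12465 genes, and genes with an adjusted p under 0.05 are said to be called or to have passed. The model held the 4 groups, and a second model with the mouse as a block is given where it changed the call of a member. In bulk RNA, fewer cells of a type and less RNA per cell cannot be told apart.

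**Figure D1:**
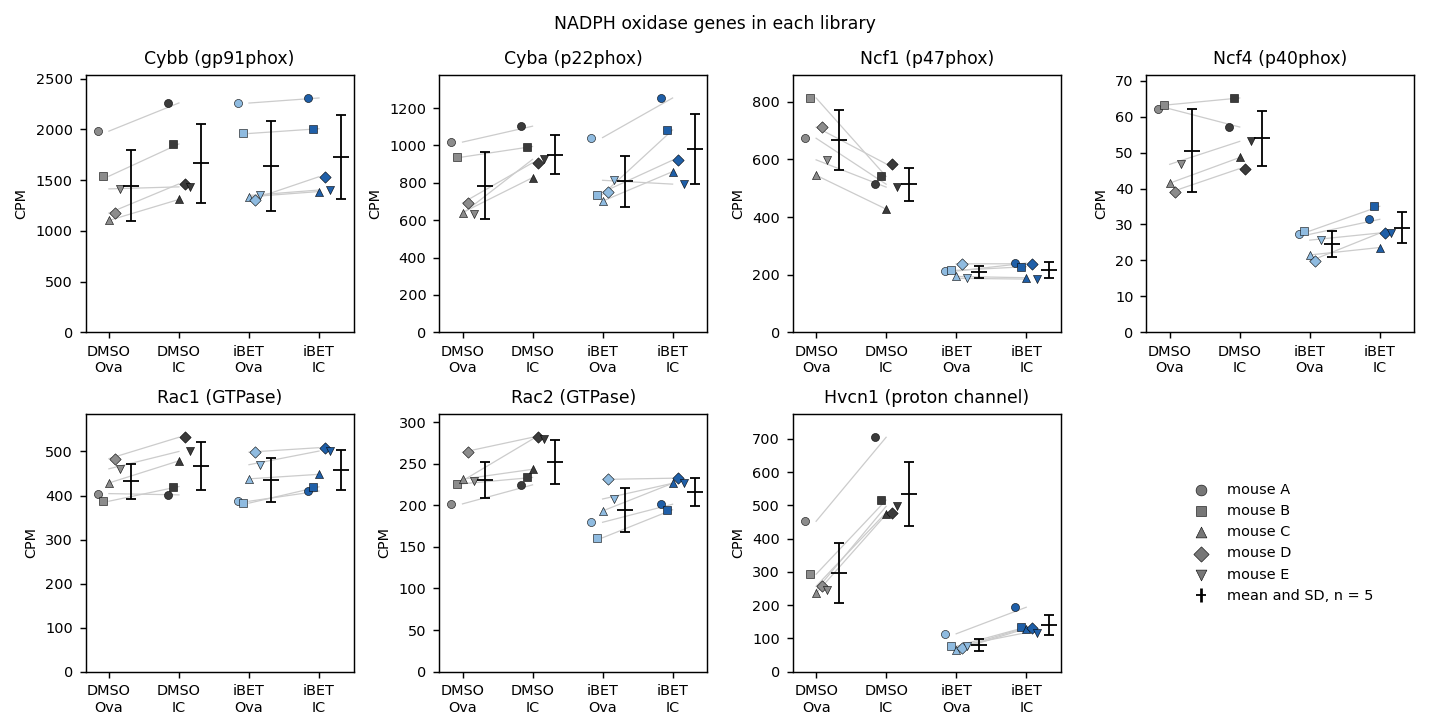
CPM (linear axis from 0) of the 7 genes in each library by group, with 1 symbol per mouse, grey lines joining the Ova and IC libraries of a mouse within DMSO or iBET, and bars for the mean and SD of 5. Ncf1, Ncf4 and Hvcn1 show no overlap between iBET and DMSO in either stimulus, whereas Cybb, Cyba and Rac1 overlap in both.

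Among the membrane subunits, Cybb had 1983, 1539, 1103, 1176 and 1414 CPM in DMSO Ova for mice A to E, and 2260, 1960, 1336, 1300 and 1349 CPM in iBET Ova. With IC, the values were 2261, 1857, 1310, 1463 and 1434 CPM in DMSO and 2310, 2007, 1388, 1534 and 1403 CPM in iBET. Mouse A was the highest and mouse B the next in every group, and the groups overlapped throughout. The log2 fold change with iBET was 0.19 ± 0.20 (SE) with Ova (adjusted p = 0.453) and 0.05 ± 0.20 with IC (adjusted p = 0.838). Within mice, iBET Ova exceeded DMSO Ova in 4 of 5, and with the mouse as a block this difference passed (log2 fold change 0.18, adjusted p = 0.00912). IC was higher than Ova in 5 of 5 mice in DMSO, at 1665 ± 391 against 1443 ± 349.5 CPM (SD, n = 5). That difference did not pass without the block (adjusted p = 0.523) and passed with it (log2 fold change 0.21, adjusted p = 0.00709).

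Cyba had 1018, 938, 641, 693 and 635 CPM in DMSO Ova for mice A to E and 1103, 994, 828, 907 and 926 CPM in DMSO IC. In iBET the values were 1042, 738, 702, 749.6 and 814 CPM with Ova and 1254, 1083, 859.9, 921 and 793 CPM with IC. The 4 groups overlapped, and mouse A was again the highest in each. The iBET difference was small in both stimuli, with log2 fold changes of 0.04 ± 0.15 (SE, adjusted p = 0.822) with Ova and 0.05 ± 0.15 (adjusted p = 0.812) with IC. IC was above Ova in 5 of 5 mice in DMSO and 4 of 5 in iBET, with a log2 fold change of 0.28 ± 0.15 in each (adjusted p = 0.207 and 0.248). Both differences passed with the mouse as a block (adjusted p = 0.00402 in DMSO and 0.0102 in iBET).

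Of the cytosolic subunits, Ncf1 (p47phox), which organises the assembly, had 673, 813, 545, 712 and 598 CPM in DMSO Ova for mice A to E. In iBET Ova the same mice had 213, 215, 194, 238 and 188 CPM, so that the highest iBET library stood well under the lowest DMSO library. The log2 fold change was -1.67 ± 0.11 (SE, adjusted p = 2.29e-10), lower in 5 of 5 mice. With IC, the values were 514, 541, 427, 584 and 504 CPM in DMSO and 240.3, 228, 189.5, 238 and 185 CPM in iBET, again with no overlap. The log2 fold change there was -1.25 ± 0.11 (adjusted p = 1.12e-08).

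Ncf1 was also the only member called lower with IC, in DMSO. Its mean went from 668 ± 104 CPM with Ova to 514 ± 57.6 CPM with IC (SD, n = 5), with a log2 fold change of -0.38 ± 0.11 (SE, adjusted p = 0.0190), lower in 5 of 5 mice although the groups overlapped. This call was lost without mouse A (adjusted p = 0.0561), without mouse B (0.0879), with mice C, D and E alone (0.155) and with only the 10 DMSO libraries in the fit (0.0520). In iBET, Ova and IC gave 209 ± 19.8 and 216 ± 26.9 CPM, a log2 fold change of 0.05 ± 0.11 (adjusted p = 0.845). The difference between the 2 iBET effects, the interaction, was 0.42 ± 0.15 on the log2 scale (unadjusted p = 0.0127, adjusted p = 0.959), and with the mouse as a block it passed (0.42, adjusted p = 0.0214).

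Ncf4 (p40phox), which binds phosphatidylinositol 3-phosphate on phagosomes, had 62.2, 63.3, 41.5, 38.9 and 46.7 CPM in DMSO Ova and 27.3, 28.2, 21.5, 19.8 and 25.7 CPM in iBET Ova. With IC it had 57.1, 65.2, 48.6, 45.6 and 53.1 CPM in DMSO and 31.5, 35.1, 23.6, 27.6 and 27.6 CPM in iBET. The iBET and DMSO libraries did not overlap in either stimulus, with log2 fold changes of -1.04 ± 0.15 (SE, adjusted p = 5.72e-06) with Ova and -0.89 ± 0.15 (adjusted p = 3.49e-05) with IC. IC against Ova gave 0.09 ± 0.14 in DMSO (adjusted p = 0.705) and 0.25 ± 0.15 in iBET (adjusted p = 0.308), and the latter passed with the mouse as a block (adjusted p = 0.00796).

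The GTPases of the active complex are Rac1, which most cells express, and Rac2, which is largely confined to blood cells. Rac1 had 404, 387, 429, 484 and 461 CPM in DMSO Ova for mice A to E and 387, 383, 438, 499 and 470 CPM in iBET Ova. With IC its means were 467 ± 54.7 CPM in DMSO and 458 ± 45.4 CPM in iBET (SD, n = 5). The iBET differences were 0.01 ± 0.10 (SE, adjusted p = 0.951) and -0.03 ± 0.10 (adjusted p = 0.819) on the log2 scale, and IC against Ova in DMSO was 0.11 ± 0.10 (adjusted p = 0.474, and 0.0358 with the mouse as a block).

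Rac2 had 202, 226, 231, 264 and 229.5 CPM in DMSO Ova and 180, 161, 193, 231 and 208 CPM in iBET Ova, lower in each mouse although the groups overlapped. The log2 fold change was -0.24 ± 0.10 (SE, adjusted p = 0.0344). This call was lost in 6 of 16 other settings, among them without mouse B (adjusted p = 0.199), C (0.136) or E (0.0578). With IC, Rac2 had 225, 234, 243, 282 and 279.6 CPM in DMSO and 201, 195, 227, 233 and 227 CPM in iBET, again lower in 5 of 5 mice. Its log2 fold change of -0.22 ± 0.10 did not pass (adjusted p = 0.0519) and passed with the mouse as a block (adjusted p = 0.000885). IC against Ova was 0.13 ± 0.10 in DMSO (adjusted p = 0.3599) and 0.15 ± 0.10 in iBET (adjusted p = 0.334, and 0.0256 with the block).

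Hvcn1, the voltage-gated proton channel, showed the largest differences of the 7 in each pairwise comparison. In DMSO Ova it had 452, 293, 236, 257 and 245 CPM for mice A to E, and in DMSO IC 704, 516, 473, 478 and 497 CPM. In iBET Ova it had 114, 76.4, 65.0, 69.7 and 75.8 CPM, and in iBET IC 194, 134, 129.7, 133 and 117 CPM. The 4 groups did not overlap, in the order iBET Ova, iBET IC, DMSO Ova and DMSO IC. The iBET difference was -1.89 ± 0.19 (SE, adjusted p = 8.28e-08) with Ova and -1.91 ± 0.19 (adjusted p = 6.58e-08) with IC on the log2 scale. The IC difference was 0.85 ± 0.19 (adjusted p = 0.00355) in DMSO and 0.82 ± 0.19 (adjusted p = 0.00777) in iBET, higher in 5 of 5 mice each time. The interaction was -0.03 ± 0.26 (SE, adjusted p = 0.9999). The call for IC in iBET was lost without mouse D (adjusted p = 0.0525), and with mice A and B alone neither IC call passed.

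**Figure D2:**
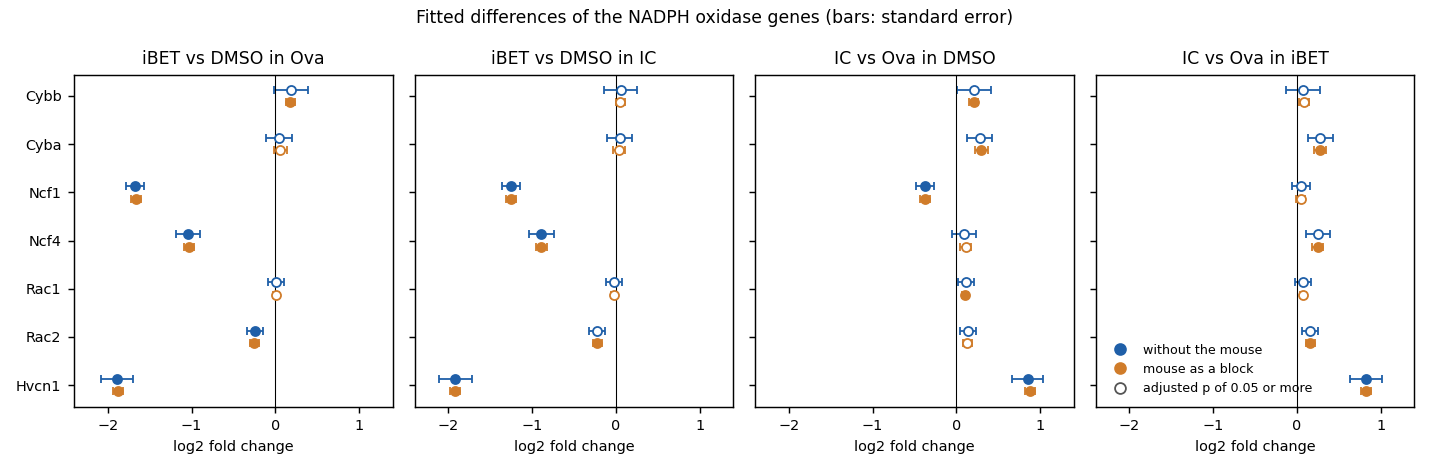
Log2 fold changes with their SE for the 7 genes in the 4 pairwise comparisons, without the mouse in the model (blue) and with the mouse as a block (orange), where filled points have an adjusted p under 0.05. Ncf1, Ncf4 and Hvcn1 lie between -1.91 and -0.87 in both iBET comparisons, and the block shortens the bars and fills further points near 0.

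Counted over the complex, iBET against DMSO with Ova called 4 of 7 genes lower (Ncf1, Ncf4, Rac2 and Hvcn1), where 28.9% of all genes tested were lower, 27.7% higher and 56.6% called in either direction. No member was called higher there, also at an unadjusted p under 0.05 and by DESeq2 (0 each). With IC, 3 of 7 were lower (Ncf1, Ncf4 and Hvcn1), against a background of 29.0% lower, 27.1% higher and 56.1% in either direction, and again 0 were higher by edgeR at an adjusted or unadjusted p under 0.05 and 0 by DESeq2. Groups without overlap were found for 3 of 7 genes in each iBET comparison, where 38.0% and 42.8% of all genes had none with Ova and with IC. The medians of the members' log2 fold changes were -0.24 and -0.22, beside -0.003 and -0.005 for all genes tested. iBET moved much of the transcriptome, and the share of members called in either direction lay close to that of all genes.

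For IC against Ova in DMSO, 2 of 7 were called (Hvcn1 higher and Ncf1 lower), beside 20.3% of all genes tested (9.59% higher and 10.7% lower). In iBET 1 of 7 was called (Hvcn1, higher), beside 11.8% (5.19% higher and 6.63% lower). Only Hvcn1 had groups without overlap in these comparisons, as did 12.4% of all genes in DMSO and 10.0% in iBET. The members' median log2 fold change was 0.13 and 0.15, beside -0.02 and -0.01 for all genes. Scaled by library size only, the medians of all genes were -0.13 and -0.12 and those of the members 0.02 and 0.05. The balance of all calls then moved from 1196 higher and 1335 lower to 582 and 2593 in DMSO, and from 647 and 827 to 313 and 2030 in iBET, while the members' calls stayed at 2 and 1. The interaction called 0 of 7 by edgeR and by DESeq2, and 1 at an unadjusted p under 0.05 (Ncf1), beside 0.0401% of all genes. With the mouse as a block the counts were 5 (1 higher, 4 lower), 4, 5 (4 higher, 1 lower), 4 and 1 of 7 in the same order of comparisons, where 68.7%, 68.0%, 38.1%, 28.9% and 0.818% of all genes were called. The IC and iBET comparisons share libraries and are not independent of each other.

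Ratios within a library, which do not depend on the scaling between libraries, were tested for 3 pairs of partners in the 4 pairwise comparisons by an exact two-sided permutation test of 5 against 5 libraries, adjusted over the 12 tests (smallest p 0.00794). The log2 ratio of Rac2 to Rac1 counts was -0.91 ± 0.10 (SD, n = 5) in DMSO Ova and -1.16 ± 0.06 in iBET Ova, a difference of -0.25 with no overlap (exact permutation p = 0.00794, adjusted p = 0.0476). With IC it was -0.88 ± 0.06 in DMSO and -1.08 ± 0.07 in iBET, a difference of -0.19 (exact permutation p = 0.00794, adjusted p = 0.0476), where the closest libraries both stood at -0.98. The share of Rac2 in the Rac pair was thus lower with iBET in 5 of 5 mice in both stimuli.

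The ratio of Ncf4 to Ncf1 was higher with iBET in 5 of 5 mice, since Ncf1 fell further. It was -3.74 ± 0.28 in DMSO Ova and -3.10 ± 0.29 in iBET Ova, a difference of 0.64 (exact permutation p = 0.0159, adjusted p = 0.0476, n = 5), and -3.26 ± 0.25 and -2.90 ± 0.17 with IC, a difference of 0.36 (exact permutation p = 0.0159, adjusted p = 0.0476). IC against Ova gave 0.48 in DMSO (exact permutation adjusted p = 0.0571) and 0.21 in iBET (adjusted p = 0.357). For the membrane pair, Cybb to Cyba, the differences were between -0.19 and 0.12, with exact permutation adjusted p values of 0.313 to 0.818. Each pair overlapped between groups except Rac2 to Rac1 with iBET. When the mice were paired, by an exact permutation of the signs of 5 differences, no p could go below 0.0625.

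**Figure D3:**
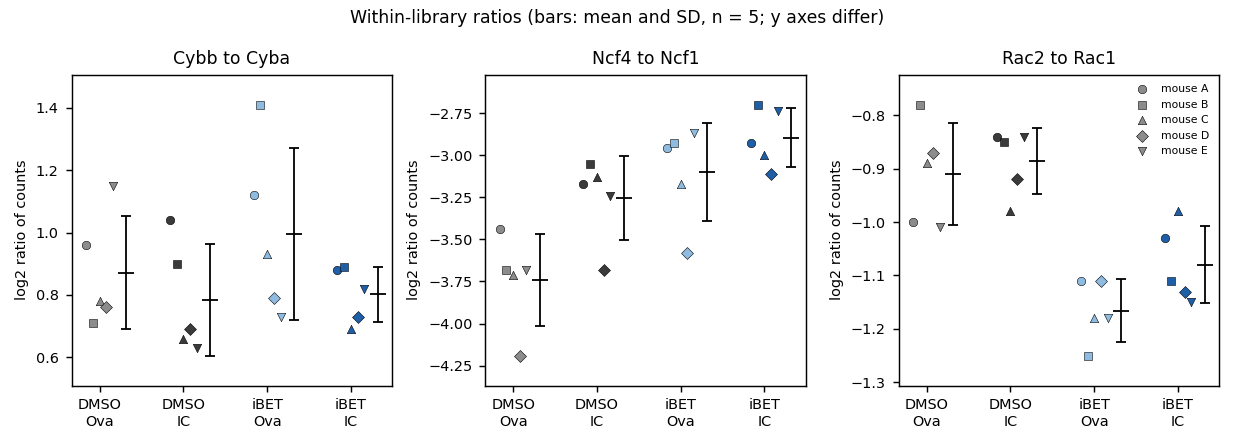
Log2 ratios (y axes) of counts within each library for Cybb to Cyba, Ncf4 to Ncf1 and Rac2 to Rac1 by group, with 1 symbol per mouse and bars for the mean and SD of 5, on y axes that differ between panels. Rac2 to Rac1 stands at or under -0.98 in all iBET libraries, and the mean of Ncf4 to Ncf1 is lowest in DMSO Ova.

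Levels of different genes were compared only per kilobase of exons. In DMSO Ova, Cyba stood first at 756 ± 173 CPM per kilobase (SD, n = 5), followed by Cybb at 248.5 ± 60.2, Ncf1 at 182 ± 28.3, Rac1 at 96.3 ± 8.82, Hvcn1 at 83.2 ± 25.2, Rac2 at 74.3 ± 7.14 and Ncf4 at 25.0 ± 5.70. In this order Cybb and Ncf1 overlapped, as did Rac1, Hvcn1 and Rac2 with their neighbours, whereas Cyba was separated from Cybb, Ncf1 from Rac1 and Rac2 from Ncf4. In DMSO IC, Hvcn1 (149.8 ± 27.2) moved beside Ncf1 (140.3 ± 15.7), and their ranges overlapped. In iBET Ova the order became Cyba, Cybb, Rac1, Rac2, Ncf1, Hvcn1 and Ncf4, with Ncf1 at 57.2 ± 5.40, Hvcn1 at 22.5 ± 5.45 and Ncf4 at 12.1 ± 1.81. Of these neighbours only Rac2 and Ncf1 overlapped. The order in iBET IC was the same, and Ncf1 and Hvcn1 overlapped there as well.

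**Figure D4:**
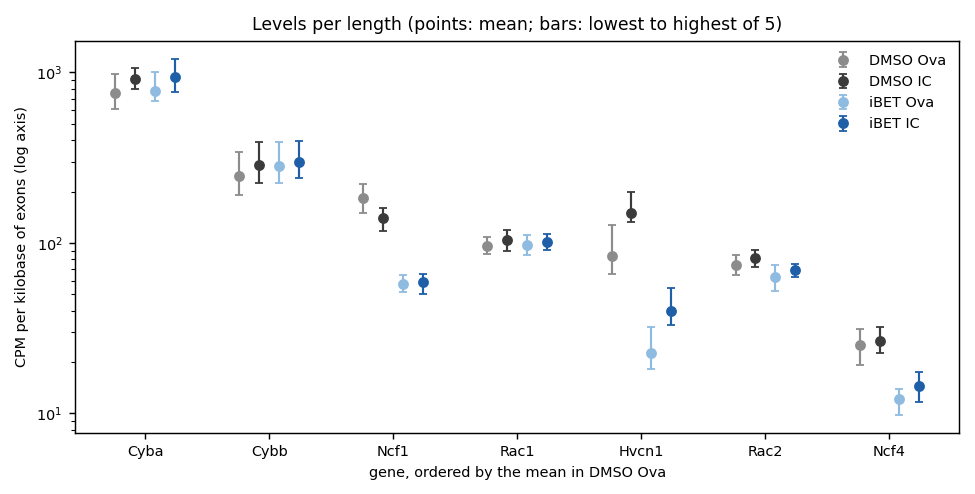
CPM per kilobase of exons on a log axis for the 7 genes, ordered by their mean in DMSO Ova, where points are group means and bars run from the lowest to the highest of 5 libraries. Ncf1 and Hvcn1 drop below Rac2 in both iBET groups.

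Differences between mice ran across the groups. Cybb was highest in mouse A and next in mouse B in all 4 groups, between 1539 and 2310 CPM, where mice C, D and E lay between 1103 and 1534 CPM. Rac1 went the other way, with 383 to 420.4 CPM in mice A and B and 429 to 532 CPM in mice C, D and E. Hvcn1 was highest in mouse A in each group. Across the 20 libraries the log2 CPM of Ncf1, Ncf4 and Hvcn1 were correlated with each other (Pearson r of 0.82 to 0.92), Cybb with Cyba (r = 0.80) and Rac1 with Rac2 (r = 0.73), while Cybb and Rac1 had r = -0.65. These are descriptions over libraries that share 4 groups and 5 mice, so that both treatment and animal enter them.

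By the same measure, the genes most like each member outside the set were Wfdc21 (r = 0.94) and Itgb2 (0.93), the latter encoding the integrin subunit CD18, for Cybb, and Naglu (0.97) and Fcer1g (0.96), the latter the signalling chain shared by activating Fc receptors, for Cyba. Those for Ncf1 were Fermt3 (0.985), encoding kindlin-3, and Lrrc25 (0.98), and those for Ncf4 were Klhdc4 (0.97) and Nr1h3 (0.97), the liver X receptor alpha. For Rac1 they were Hspbap1 (0.95) and Lmo1 (0.93), for Rac2 Vav2 (0.94) and Acss1 (0.94), and for Hvcn1 Tgfbr2 (0.99) and Abr (0.98). Vav2 and Abr, an exchange factor for Rac and a Rac GTPase-activating protein, are also in the list of Rac regulators described next.

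Other oxidases were nearly absent. Nox3, Nox4, Noxa1, Duox1, Duox2 and Duoxa2 had no count in any library, Nox1 had 5 counts in all and Duoxa1 had 1. Noxo1, the organiser of NOX1, had 3 to 19 counts per library. Its exons share 2122 bases with those of Tbl3 on the other strand, and the median library held 686 counts for Tbl3 beside 9 for Noxo1. With iBET, Noxo1 was higher by 1.37 ± 0.37 on the log2 scale with IC (SE, adjusted p = 0.00391). With Ova the difference was 0.77 ± 0.33 (adjusted p = 0.0546, and 0.00749 with the mouse as a block), at levels of at most 0.976 CPM. Noxo1 passed the filter on low counts mostly through the iBET libraries, so that no weight rests on these differences. Cybc1, a chaperone of the membrane subunits, was not matched by symbol and was not analysed here.

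A list of 14 genes held regulators of the Rac switch (exchange factors, GTPase-activating proteins and inhibitors of GDP release) and the related GTPases Rac3, Rap1a and Rap1b. Of the 14, 9 were lower and 1 higher with iBET in each stimulus (10 and 11 lower with the mouse as a block), beside 28.9% and 29.0% of all genes lower, with a median log2 fold change of -0.38 with Ova and -0.36 with IC. Of the 3 GTPases, Rap1b was called, lower with IC (-0.17, adjusted p = 0.0415). Vav1, the exchange factor of blood cells, was lower, with -1.04 ± 0.07 (SE, adjusted p = 2.10e-10) with Ova and -1.07 ± 0.07 (adjusted p = 1.40e-10) with IC, and so was Abr, with -0.96 and -1.200 (adjusted p = 4.31e-08 and 2.05e-09). Bcr, a relative of Abr, rose by 1.41 and 1.74 (adjusted p = 1.46e-06 and 9.74e-08), from 4.07 to 10.8 CPM with Ova. IC in DMSO raised 2, Abr by 0.46 (adjusted p = 0.00170) and Vav1 by 0.37 (adjusted p = 0.000798), and lowered Tiam1, another exchange factor, with -0.39 ± 0.13 (adjusted p = 0.0412). In iBET, IC raised 2 and lowered 0, and the count lowered was also 0 by DESeq2 and at an unadjusted p under 0.05. Of all genes, IC raised 9.59% and lowered 10.7% in DMSO, and raised 5.19% and lowered 6.63% in iBET. With the mouse as a block, IC raised 5 and lowered 2 of the list in DMSO and raised 6 and lowered 1 in iBET. The block called 68.7% and 68.0% of all genes with iBET in Ova and IC, in either direction. For IC in DMSO and in iBET it called 38.1% and 28.9%.

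Kinases and adaptors that phosphorylate the cytosolic subunits or supply their lipids went both ways, with 5 of 12 higher and 3 lower with iBET in each stimulus. Of all genes, 27.7% and 27.1% were higher with Ova and IC, and 28.9% and 29.0% lower. Scaled by library size only, 2 were higher and 3 lower in each. Pik3cg, the gamma isoform of PI3 kinase, fell with Ova and IC (log2 fold changes -1.26 and -1.196, adjusted p = 1.22e-05 and 2.16e-05), and Prkcd, protein kinase C delta, fell as well (-0.70 and -0.84, adjusted p = 1.92e-07 and 1.71e-08). Pak1, a kinase that phosphorylates p47phox, rose by 0.31 and 0.60 (adjusted p = 0.0119 and 4.55e-05). IC in DMSO lowered 4, among them Pak1, with -0.63 ± 0.10 (SE, adjusted p = 0.000228), and Mapk14, the p38 kinase, with -0.53 ± 0.06 (adjusted p = 3.36e-06), and in iBET it lowered 2. No gene of this list was higher with IC by edgeR without the mouse at an adjusted p under 0.05, whereas 1 was at an unadjusted p under 0.05 and 1 by DESeq2 in DMSO (0 and 0 in iBET). Of all genes, IC lowered 10.7% in DMSO and 6.63% in iBET. With the mouse as a block, IC raised 1 of the list (Prkcd, by 0.20, adjusted p = 0.00526) and lowered 5 in DMSO, and lowered 4 in iBET. The block called 38.1% and 28.9% of all genes there, in either direction.

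A list of 11 genes held enzymes that make NADPH, the electron donor, and others of the pentose phosphate pathway. With iBET in Ova 2 were higher, G6pdx, which makes NADPH, and Tkt, a transketolase, beside 27.7% of all genes higher. With IC, 27.1% of all genes were higher with iBET and 29.0% lower. With iBET in IC the isomerase Rpia was higher, and Me1, the malic enzyme, which makes NADPH, was lower, with -0.91 ± 0.27 (SE, adjusted p = 0.00679) at means of 2.44 CPM in DMSO IC and 1.29 CPM in iBET IC. Scaled by library size only, 0 were higher with iBET in either stimulus and 0 and 2 were lower. IC in DMSO raised Pgd, the dehydrogenase of 6-phosphogluconate, by 0.34 ± 0.08 (SE, adjusted p = 0.00573) and Taldo1, a transaldolase, by 0.25 ± 0.09 (adjusted p = 0.0449). In iBET it raised 1, Pgd, where IC raised 9.59% of all genes in DMSO and 5.19% in iBET. The medians lay between 0.05 and 0.09 in the 4 comparisons. No gene was lower in the other 3 comparisons by edgeR or DESeq2, and 1 was at an unadjusted p under 0.05, for IC in DMSO. With the mouse as a block, 3 were higher and 1 lower with iBET in Ova, 5 and 2 in IC, and with IC 3 and 2 in DMSO and 2 and 1 in iBET. In the same order, 68.7%, 68.0%, 38.1% and 28.9% of all genes were called with the block in either direction.

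Of 12 tested genes that remove superoxide or peroxide, 6 were higher with iBET in Ova and 5 in IC, beside 27.7% and 27.1% of all genes. IC raised 5 in DMSO and 4 in iBET, beside 9.59% and 5.19% of all genes. The counts for iBET include Mpo, which passed the filter on low counts through the iBET libraries, so that its call adds nothing to them. Without the mouse in the model none was called lower by edgeR or by DESeq2 in the 4 comparisons, and at an unadjusted p under 0.05 there was 1, for iBET with IC. That gene, Cat, which encodes catalase, was called lower there with the mouse as a block (-0.18, adjusted p = 0.000905) and 1 gene was lower with scaling by library size only. With the block, 9 were higher with iBET in Ova and 6 in IC, and IC raised 9 in DMSO and 9 in iBET. In the same order, 68.7%, 68.0%, 38.1% and 28.9% of all genes were then called in either direction. Sod1, the cytosolic superoxide dismutase, rose from 55.4 ± 4.97 to 97.1 ± 13.9 CPM (SD, n = 5) with iBET in Ova, a log2 fold change of 0.81 ± 0.12 (SE, adjusted p = 1.10e-05), and by 0.75 in IC (adjusted p = 2.69e-05). Txn1, thioredoxin, rose by 0.39 and 0.42 (adjusted p = 0.000595 and 0.000298). Prdx1, a peroxiredoxin, rose with IC in DMSO by 1.04 ± 0.22 (adjusted p = 0.00291) and Prdx6 by 0.69 ± 0.14 (adjusted p = 0.00155). Mpo, which makes hypochlorous acid from peroxide, had 3 counts over the 5 DMSO Ova libraries and 47 over the 5 iBET Ova libraries, a ratio of 16.0 per total count (95% exact interval 5.14 to 80.1, counting error only). With IC the counts were 2 and 72 (ratio 34.4, interval 9.20 to 290). These intervals pool the mice and leave out the spread between them, and the same iBET libraries brought Mpo past the filter. No weight rests on them.

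Of 10 transcription factors known to act on oxidase genes, 7 fell with iBET in Ova and 7 in IC, beside 28.9% and 29.0% of all genes, with medians of -0.52 and -0.59, and 0 rose by edgeR, by DESeq2 or at an unadjusted p under 0.05. Cebpa, Irf8 and Nfkb1 did not pass, with log2 fold changes of -0.21, -0.68 and -0.28 in Ova and -0.11, -0.68 and -0.23 in IC, and with the mouse as a block 10 fell in Ova and 9 in IC. Spi1, which encodes PU.1, went from 193 ± 11.1 to 32.3 ± 4.10 CPM with Ova and from 216 ± 16.0 to 31.7 ± 3.44 CPM with IC (SD, n = 5). Its log2 fold changes were -2.58 ± 0.09 (SE, adjusted p = 2.65e-14) and -2.77 ± 0.09 (adjusted p = 1.10e-14). Cebpe fell (-2.28 and -2.70, adjusted p = 3.42e-07 and 6.75e-08), at 6.97 CPM or less in any library, and so did Runx1 (-1.35 and -1.47, adjusted p = 1.05e-09 and 3.43e-10). Cebpb was the 1 factor raised by IC in DMSO, by 1.07 ± 0.15 (adjusted p = 6.29e-05), and in iBET, where it rose by 0.74 (adjusted p = 0.00286). No factor was called lower with IC by edgeR or DESeq2, and at an unadjusted p under 0.05 there were 0 in DMSO and 2 in iBET. Of all genes, IC raised 9.59% in DMSO and 5.19% in iBET, and lowered 10.7% and 6.63%. With the mouse as a block, IC raised 3 factors in DMSO and raised 2 and lowered 2 in iBET. The block called 68.7% and 68.0% of all genes with iBET in Ova and IC, in either direction. For IC in DMSO and in iBET it called 38.1% and 28.9%. The interaction called 0 genes in each of these 5 lists by edgeR and by DESeq2, and at an unadjusted p under 0.05 it called 1, in the list of kinases.

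**Figure D5:**
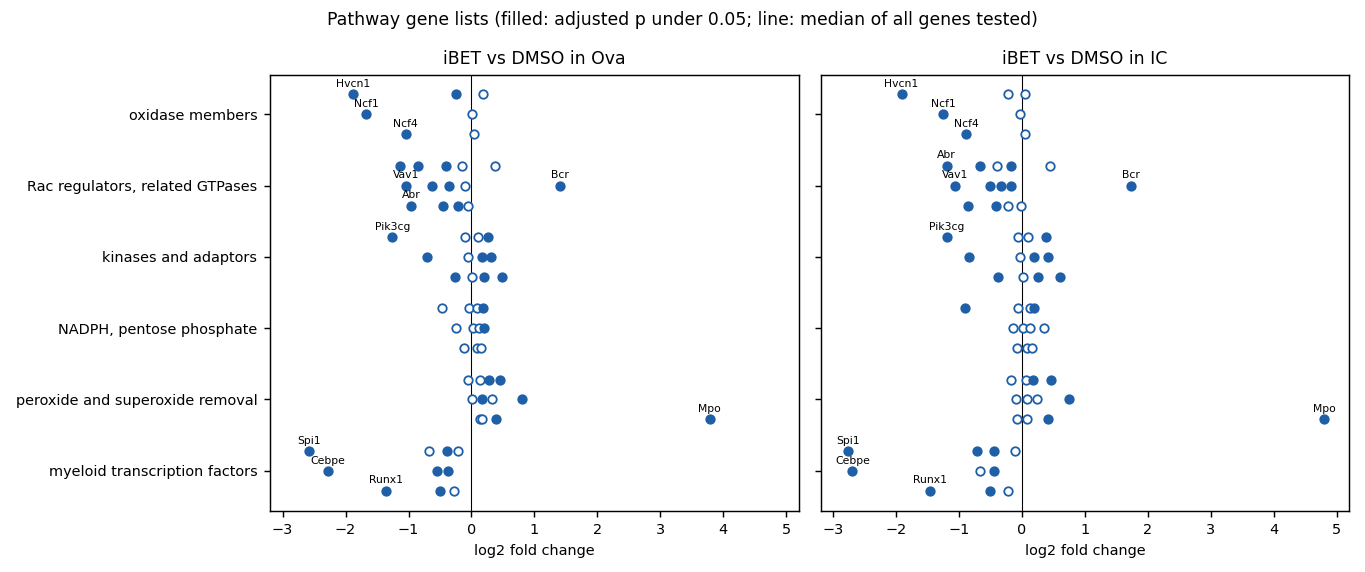
Log2 fold changes with iBET for the members and the 5 pathway lists, 1 point per gene, with Ova on the left and IC on the right; filled points have an adjusted p under 0.05 and the line marks the median of all genes tested. Points are spread vertically only to separate them. The 10 transcription factors lie below 0 and the removal enzymes mostly above it, where the fitted value of Mpo rests on 3 and 2 counts in DMSO.

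Markers of the cells that such cultures can hold were summed as CPM per library. The 8 dendritic cell genes, with Itgax, Cd74 and MHC class II among them, gave 4484 to 9525 CPM, with overlapping groups, and 1 of 8 was called lower with iBET (Flt3, at most 4.94 CPM). With log2 fold changes of -3.66 in Ova and -2.91 in IC, the place of Flt3 among the genes tested rests mostly on the DMSO libraries. Its calls therefore carry little weight. With the mouse as a block 5 of the 8 dendritic cell genes were lower in each stimulus, and 1 was higher in Ova and 2 in IC. The counts of markers stand beside 28.9% and 29.0% of all genes lower with iBET in Ova and IC, and 27.7% and 27.1% higher. With the block, 68.7% and 68.0% of all genes were called in either direction, so that counts near these shares are no result about the markers. The 8 macrophage genes gave 1289 to 1978 CPM in DMSO Ova and 897 to 1284 CPM in iBET Ova, and 1388 to 1919 CPM in DMSO IC and 959.7 to 1455 CPM in iBET IC. With iBET, 5 of the 8 were lower in Ova and 3 in IC, and Adgre1, which encodes F4/80, was at 163 ± 12.5 and 145.8 ± 16.5 CPM (SD, n = 5) in DMSO Ova and iBET Ova (adjusted p = 0.1035). The part of macrophage-like cells in the lower Ncf1, Ncf4 and Hvcn1 was not tested. Of 10 neutrophil genes 9 were in the table, with sums of 431 to 915 CPM that overlapped between groups. Of these, Cxcr2, a chemokine receptor, was lower with iBET, with -2.08 in Ova (adjusted p = 0.00054) and -2.41 in IC (adjusted p = 0.00024). At its group means of 0.319 to 2.12 CPM, its place among the genes tested rests mostly on the DMSO libraries, so that these calls carry little weight. With the mouse as a block S100a8 was lower as well, with -0.38 in Ova (adjusted p = 0.00144) and -0.32 in IC (adjusted p = 0.00609). The 6 genes of eosinophils, basophils and mast cells summed to 39.9 to 138 CPM, and 1, Siglecf, was lower with iBET in both stimuli (-0.48 and -0.51, adjusted p = 0.0113 and 0.00783). The part of such cells in the lower Ncf1, Ncf4 and Hvcn1 was not tested either. The 7 lymphocyte genes summed to at most 0.801 CPM.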

How the data were processed

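Bulk RNA-seq of mouse BMDCs gave 20 libraries, and 24421 genes were listed. The authors trimmed reads with Trim Galore, aligned them to mm10 with HISAT2 and deposited featureCounts counts per gene, where versions, annotation and strand setting are not given in the sources used here. They also deposited a signal table, the counts divided by a DESeq2 size factor per library, used here as an alternative. The labels describe cells sorted into lysis buffer, the methods lysis in culture, and RNA was amplified from low input. The 7 members and the gene lists were chosen with earlier results of these data known.

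Counts were filtered with filterByExpr (12465 genes kept), normalized with TMM and tested with edgeR 4.0.16 in R 4.3.3 on the 4 groups, with Benjamini-Hochberg adjustment and a threshold of 0.05. Alternatives used limma 3.58.1, DESeq2 1.42.0 and sva 3.50.0 (3 surrogate variables), as the closing section describes, and the edgeR fit was tested on simulated data. The mice pair the libraries, since each gave all 4: deviations from the group means correlated at a mean of 0.524 (lowest 0.307) over 30 pairs of libraries of 1 mouse, and at -0.156 between mice. No 2 libraries of a group were alike within sampling noise. Ratios were log2 of counts plus 0.5. Likeness used log2 CPM with a prior count of 2. Lengths were exon unions of GENCODE M21. Beyond the members, the genes named were the 3 of each pathway list with the largest mean change over both iBET comparisons among those called in both in 1 direction, the 2 with the largest change for IC in DMSO among those called, and the 2 genes most like each member. G6pdx, Tkt, Rpia, Me1, Rap1b, Cat, Cebpa, Irf8, Nfkb1, Adgre1, Flt3, Cxcr2, S100a8 and Siglecf were named after their values were seen. Some genes of the lists are not reported here.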

Additional observations from a re-analysis of the deposited data

Results flagged for a closer look

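Hvcn1 in mouse A stood apart from the other 4 mice in each of the 4 groups. In DMSO Ova it had 452 CPM where the others had 235.5 to 292.9, and in DMSO IC 704.4 CPM where the others had 472.7 to 515.7. In iBET Ova it had 113.8 CPM against 64.98 to 76.39, and in iBET IC 193.6 CPM against 117.3 to 134.2. In each case the gap to the nearest mouse, divided by the range of the group, was above the 95% critical value of Dixon's test for 5 samples (0.735, 0.814, 0.766 and 0.779). Such a value arises by chance in about 1 in 20 groups, and 4 of 40 groups were found. Of the 40, 28 were groups of member levels, and all 4 were among these. All 4 came from 1 gene and 1 mouse, so that they are not independent. Without mouse A, Hvcn1 passed the test in the 4 pairwise comparisons.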

How the results depend on the processing

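The calls of Ncf1, Ncf4 and Hvcn1 with iBET were kept in 16 of 16 alternatives in both stimuli, with log2 fold changes of -1.80 to -1.15 for Ncf1, -1.18 to -0.83 for Ncf4 and -1.97 to -1.76 for Hvcn1. These 16 leave out the fold change minimum, a log2 fold change of 1 or more in size, which Ncf4 with iBET in IC (-0.89) misses. The number of members called changed by over 1.5 times for IC and the interaction. For IC in DMSO (2 called) it was 5 with the mouse as a replicate block, 6 with DESeq2 and the block, 4 with surrogate variables, 1 with the 10 libraries compared, 1 with mice A and B only, 0 with that minimum, and 1 to 2 with 1 mouse left out. For IC in iBET (1 called) it was 4 with the block, 4 with DESeq2 and the block, 3 with surrogate variables, 0 with mice A and B only, 0 with the fold change minimum, and 0 to 1 with 1 mouse left out. For the interaction (0 called) it was 1 with the block and 1 with DESeq2 and the block. Beyond these and the calls given with the genes, the block changed no call of a member or ratio other than the following.

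With the mice paired as a block, the ratio differences were 0.64 and 0.36 (Ncf4 to Ncf1 with iBET in Ova and IC) and -0.25 and -0.19 (Rac2 to Rac1), each with an adjusted p of 0.125, since 5 pairs cannot give a p below 0.0625. With 1 mouse left out they ran from 0.59 to 0.68, 0.31 to 0.42, -0.29 to -0.20 and -0.24 to -0.17, with adjusted p values of 0.0686 to 0.171, where 4 against 4 libraries cannot give a p below 0.0286 before adjustment, so that these p values say little on stability. Differences near 0 changed sign: Cybb to Cyba ran from -0.16 to 0.02 for IC in DMSO, -0.02 to 0.06 for iBET in IC and -0.02 to 0.26 for iBET in Ova, and Rac2 to Rac1 for IC in DMSO from -0.01 to 0.05.

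Of 553 refitted log2 fold changes of members, 480 kept direction and side of the threshold and 31 changed sign, none of them called. With the block, DESeq2 and the block, surrogate variables and limma, the Cyba interaction was -0.026, -0.023, -0.018 and -0.023. With library size only, Cyba with iBET was -0.007 (Ova) and -0.006 (IC), Rac1 with iBET in Ova -0.044, Ncf4 with IC in DMSO -0.012, and Cybb, Ncf1 and Rac1 with IC in iBET -0.032, -0.063 and -0.035. With surrogate variables, Ncf1 with IC in iBET was -0.052 and the Rac2 interaction -0.030. With mice A and B only, Cyba and Rac1 with iBET in Ova were -0.141 and -0.045, Rac1 with iBET in IC 0.032, Ncf4 with IC in DMSO -0.047, and the Hvcn1 and Rac1 interactions 0.095 and 0.077. With mice C, D and E only, Cyba with iBET in IC was -0.022, Ncf1 with IC in iBET -0.020, and the Cyba, Ncf4 and Rac2 interactions -0.272, -0.002 and -0.055. With 1 mouse left out, the interactions ran from -0.128 to 0.130 for Cyba, -0.090 to 0.050 for Hvcn1 and -0.035 to 0.069 for Rac2, and with iBET in Ova Cyba ran from -0.026 to 0.173 and Rac1 from -0.003 to 0.046. The cause of these changes was not tested.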
